A study of Homo sapiens with 6 samples.

Results

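The genes described here are 44 members of the NF-kB pathway and of the inflammatory cytokine programme that it feeds, taken by symbol from the 56638 gene symbols counted in each sample. They comprise 5 transcription factor subunits, 5 proteins of the inhibitor family, 2 kinases, 8 adaptors and ubiquitin regulators, 4 further induced genes, 7 chemokines, 9 cytokines or cytokine antagonists, and 4 receptors or feedback genes. The RNA-seq samples came from HCT116, a line of human colorectal carcinoma cells, and comprised 3 WT samples and 3 METTL3-KO samples in which METTL3, the catalytic subunit of the m6A RNA methyltransferase, had been targeted with CRISPR-Cas9. All samples were cultured in the same medium with serum at passage 16-19 and no cytokine or other stimulus is named for either group. As the methods describe them, the knockout cells were 1 monoclonal line made with a lentiviral guide and puromycin selection, so that the effect of the knockout and that of the clone cannot be told apart. The deposited tables themselves carry the group tags NC and SiM3 and other WT numbers, a wording that names no knockout and that no source used here explains, and the groups were taken from the labels. Neither the labels nor the methods say whether the samples were separate cultures, and the p-values then measure the spread between these samples only.

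NF-kB is a family of dimeric transcription factors that waits in the cytoplasm bound to inhibitors of the IkB family. Receptors for TNF, IL-1 and microbial products act through TRAF adaptors and ubiquitin chains on the IkB kinases, which mark the inhibitors for destruction and free the dimers to enter the nucleus. The dimers bind a short DNA element, the kappa-B site, and switch on chemokines, cytokines, survival genes and several of the pathway's own inhibitors. In colorectal epithelium this programme draws neutrophils to the mucosa and supports the survival of tumour cells.

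The promoter sequences show which members carry such an element next to their start. RefSeq promoters, 250 bases before to 50 bases after an annotated start, were at hand for 36 of the 44 members. They were searched on both strands for the kappa-B consensus, a word of 10 bases that opens with GGG and closes with CC, or on the other strand opens with GG and closes with CCC, and for the 9-base word GGAANTTCC, which overlaps the consensus in many sites. At least 1 of these words was found in 22 of the 36 members, or 61.1%, against 7.91% of the 27305 genes with a promoter of this length. The consensus alone was found in 55.6% of the members and 7.09% of all genes, and GGAANTTCC in 30.6% and 1.16%. A gene with several promoters was counted if any of them held a word. The members were chosen as genes of a pathway that acts through such sites, so their higher share is not read as a finding. Such a match is a description of the letters only.

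The sites of the members whose levels are followed most closely are written 5′ to 3′ on the strand of the gene as 30-base windows, with the matched word in capitals. They are shown to set members that were higher, lower or silent beside one another, and all positions are in GRCh37. The windows of the chemokines on chromosome 4 are those of IL8 at chr4:74606185-74606214, CXCL1 at chr4:74735022-74735051, CXCL2 at chr4:74964970-74964999, CXCL3 at chr4:74904465-74904494 and CXCL5 at chr4:74864465-74864494.
IL8: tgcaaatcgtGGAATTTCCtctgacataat
CXCL1: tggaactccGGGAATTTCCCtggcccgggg
CXCL2: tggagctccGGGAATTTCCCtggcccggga
CXCL3: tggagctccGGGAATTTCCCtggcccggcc
CXCL5: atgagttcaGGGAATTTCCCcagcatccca
The pathway's own genes follow, with NFKB1 at chr4:103422457-103422486, NFKBIA at chr14:35874017-35874046, NFKBIB at chr19:39390572-39390601, BCL3 at chr19:45251957-45251986, the upstream and the downstream site of BIRC3 at chr11:102188006-102188035 and chr11:102188070-102188099, the upstream and the downstream site of TNFAIP3 at chr6:138188319-138188348 and chr6:138188331-138188360, and ICAM1 at chr19:10381600-10381629.
NFKB1: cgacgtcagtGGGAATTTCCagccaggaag
NFKBIA: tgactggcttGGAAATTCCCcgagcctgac
NFKBIB: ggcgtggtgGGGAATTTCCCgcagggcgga
BCL3: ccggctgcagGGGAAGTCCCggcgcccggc
BIRC3 upstream: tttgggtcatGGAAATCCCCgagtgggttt
BIRC3 downstream: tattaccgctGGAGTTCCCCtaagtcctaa
TNFAIP3 upstream: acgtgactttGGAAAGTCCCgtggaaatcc
TNFAIP3 downstream: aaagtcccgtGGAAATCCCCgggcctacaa
ICAM1: gctttagcttGGAAATTCCggagctgaagc
CXCL1, CXCL2, CXCL3, CXCL5 and NFKBIB shared the same 11 letters in capitals, although their levels lay far apart, as described further on.

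METTL3 itself was at 30.6, 30.2 and 29.2 CPM in WT, where CPM is the count scaled to the TMM-adjusted library size. In METTL3-KO it was at 7.26, 7.69 and 6.89 CPM, which is 0.243 of the WT level, a log2 fold change of -2.04 (adjusted p = 1.59e-07, SE 0.0906). The samples held between 20936091 and 30142144 counts on genes. Replicate 3 of both groups stood apart from its fellows, with a chi-square per gene of 7.61 to 20.8 against them where replicates 1 and 2 differed by 2.44 in WT and 2.23 in METTL3-KO, and its deviations followed transcript length in opposite directions in the groups (rank correlation across genes 0.664 in WT and -0.603 in METTL3-KO). Of 8 colorectal epithelium markers all were detected, and their summed level was 5884 to 7284 CPM in WT and 8381 to 9347 CPM in METTL3-KO samples, with KRT8, KRT19, VIL1 and CDH1 higher and none lower, although KRT8 and CDH1 did not pass with the replicate number as a block (adjusted p = 0.0788 and 0.175) or in some fits without 1 sample. Of 10 leukocyte markers, CD163 and TYROBP were at 0 in every sample, and PTPRC and CD68 had at most 1 count in any sample. In the annotation used here 85.6% of the exonic bases of CD68 are shared with other genes. Reads ambiguous between genes were not counted, so the low count of CD68 says little about its level. The summed level of the 10 leukocyte markers was 1016 to 1055 CPM in WT and 678 to 735 CPM in METTL3-KO samples, nearly all of it LYZ, which intestinal epithelium also expresses and which fell (log2 fold change -0.56, adjusted p = 8.37e-05). CD14 had 109 to 234 counts per sample (log2 fold change 0.45, adjusted p = 0.0700) and ITGAM 45 to 73 (-0.26, adjusted p = 0.293). The fibroblast list summed to at most 9.95 CPM and the endothelial list to at most 0.182 CPM in any sample. Within the fibroblast list COL1A2 and COL3A1 were at 0, COL1A1 was higher without overlap but did not pass (log2 fold change 0.36, adjusted p = 0.0803), and LUM, a matrix proteoglycan, rose by 2.46 on the log2 scale (adjusted p = 8.12e-05), from 15, 9 and 5 counts to 77, 48 and 46, more than any NF-kB or cytokine member. LUM alone passed among the 4 tested genes of this list, whose median log2 fold change was -0.12 and whose lowest was -0.73. The part of these markers in the results was not tested. In these bulk samples, fewer cells expressing a gene and less RNA per cell cannot be told apart.

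Of the 44 members, 41 passed the minimum of 5 total counts in at least 1 condition and were tested. In METTL3-KO cells 11 were higher and 10 lower at an adjusted p under 0.05 in edgeR's quasi-likelihood test, together 51.2% of those tested, where 26.5% of all 22452 tested genes passed, 13.3% as higher and 13.2% as lower. Where the mean log2 CPM was at least 1, 21 of 32 members (65.6%) and 39.5% of all genes passed. The groups did not overlap in 27 of the 41 members, against 40.9% of all tested genes, and in every one of the 21 members that passed. Across the tested members the median log2 fold change was 0.10, with a lowest value of -1.56 for TNFAIP3 and a highest of 1.57 for IL8, while the median of all tested genes was -0.02. The members' median was 0.029 without WT replicate 1, and above that abundance limit it was -0.0197 against -0.0157 for all genes, so that no shift of the list as a whole is read from it. The list thus moved in both directions, and 4 of the 8 roles held members on both sides.

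**Figure D1:**
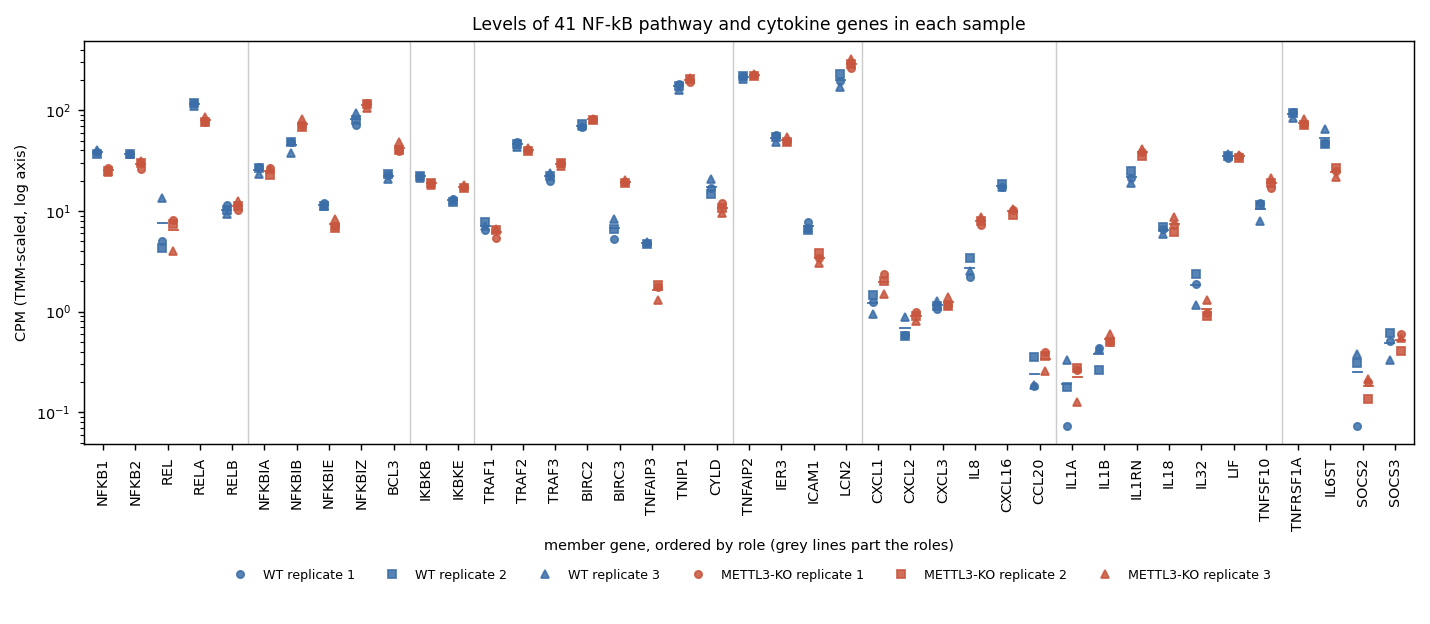
Level of each of the 41 tested members in every sample, as CPM on a log axis, with WT in blue, METTL3-KO in red, 1 marker shape per replicate and a short line at each group mean. The levels span from below 1 CPM for IL1A, IL1B and CCL20 to over 200 CPM for TNFAIP2 and LCN2, and REL is the member in which replicate 3 parts most visibly from the others.

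Per kilobase of the longest annotated transcript, the order of WT levels was led by LCN2, which encodes the iron-scavenging lipocalin 2, at 226 CPM per kb. TNIP1, a ubiquitin-binding partner of A20, followed at 59.0, TNFAIP2 at 45.4, IER3 at 39.2 and RELA at 36.2 CPM per kb. In all, 14 members were over 10 CPM per kb and 13 of the 44 were under 1. The latter were REL, BIRC3, TNFAIP3, CXCL2, CXCL3, CCL20, IL1A, IL1B, SOCS2 and SOCS3, with IL6, CXCL5 and TNF at or near 0.

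The transcription factor subunits were lower in METTL3-KO cells in 3 of 5 cases, and none was higher, where 13.2% of all tested genes were lower. The call of NFKB2, 1 of these 3, was lost in some fits, as given below. RELA encodes p65, the main activating subunit, and was at 118, 117 and 110 CPM in WT and 76.6, 76.3 and 86.1 CPM in METTL3-KO samples (115 ± 4.28 and 79.7 ± 5.58, mean ± SD, n = 3 each). All knockout samples lay below all WT samples, with a log2 fold change of -0.53 (adjusted p = 0.000318, SE 0.0764). NFKB1, which encodes p105, the precursor of the p50 subunit that pairs with p65, was at 38.8, 37.2 and 40.7 CPM in WT and 26.8, 24.8 and 24.2 CPM in METTL3-KO samples. It fell to 0.651 of the WT level (log2 fold change -0.62, SE 0.0810, adjusted p = 0.000173). RELA, for comparison, was at 0.691 of its WT level, so that the genes of both partners in the classical dimer were lower.

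NFKB2, which encodes p100, the precursor of the alternative pathway's p52 subunit, was at 37.1, 36.6 and 36.6 CPM in WT and 26.0, 30.3 and 31.7 CPM in METTL3-KO samples. Its log2 fold change of -0.33 (adjusted p = 0.0162, SE 0.0888) was smaller, and it did not pass without WT replicate 1 (-0.32, adjusted p = 0.0535), WT replicate 2 (-0.32, adjusted p = 0.0517) or METTL3-KO replicate 1 (-0.24, adjusted p = 0.0924). RELB, the usual partner of p52, was between 9.38 and 12.5 CPM in all samples, and its groups overlapped (log2 fold change 0.12, SE 0.116, adjusted p = 0.505).

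REL, which encodes c-Rel, the subunit best known from lymphocytes, varied more between replicates than between groups. It was at 4.99, 4.33 and 13.4 CPM in WT and 8.06, 7.42 and 3.997 CPM in METTL3-KO samples, so that WT replicate 3 was the highest sample of all and METTL3-KO replicate 3 the lowest. The log2 fold change was -0.19 (adjusted p = 0.742, SE 0.370). Its direction turned to 0.49 without WT replicate 3 (adjusted p = 0.0907) and to 0.06 without METTL3-KO replicate 3 (adjusted p = 0.929), and with both left out it was 0.73 (adjusted p = 9.99e-06). The longest annotated transcript of REL has 11255 bases, more than that of any other member, and 33.3% of its exonic bases are shared with another annotated gene. After a correction of the samples for length and GC content of the transcripts, which was chosen once the data had been seen, the value was -0.18 (adjusted p = 0.669). The part of replicate 3 in it was not tested further, and no direction can be given for REL.

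**Figure D2:**
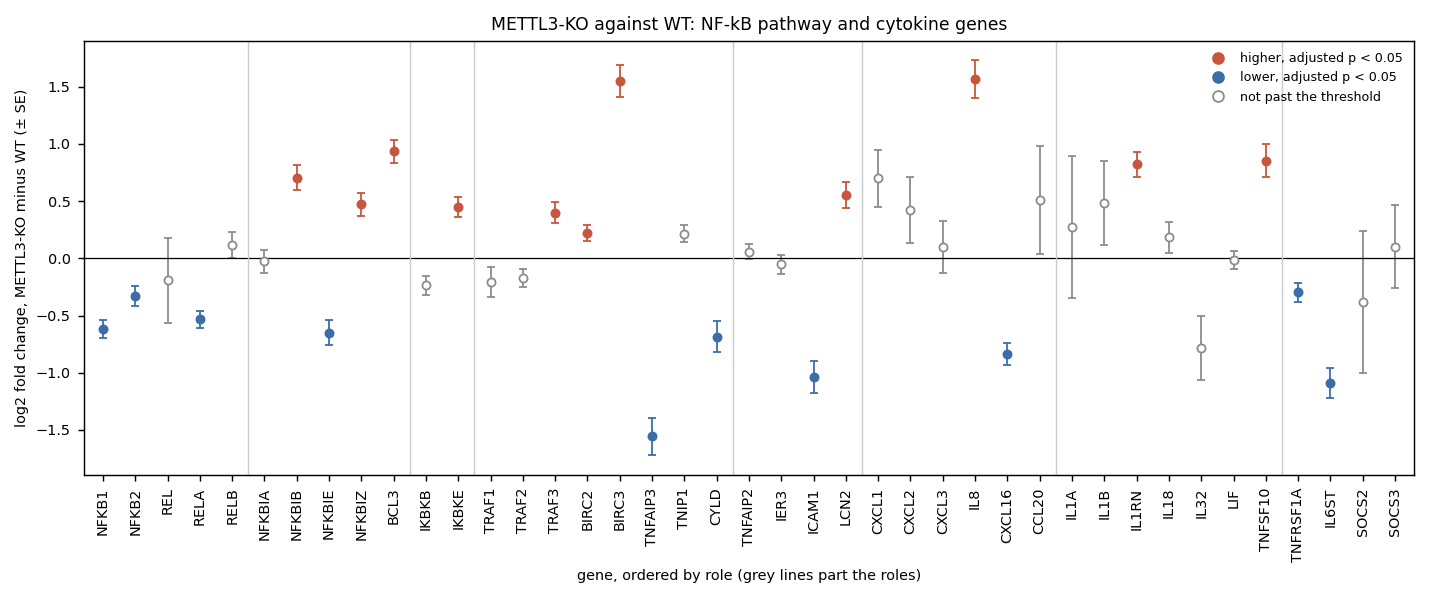
Log2 fold change of METTL3-KO minus WT for each tested member with its standard error, ordered by role and coloured where the adjusted p was under 0.05. Red points (11 higher) and blue points (10 lower) lie on both sides of 0, with BIRC3 and IL8 at the top and TNFAIP3 at the bottom.

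The inhibitor family moved in both directions. NFKBIA encodes IkB-alpha, the inhibitor that NF-kB itself induces and that is commonly read as a gauge of pathway activity. It was at 27.2, 26.6 and 23.1 CPM in WT and 26.8, 22.7 and 25.9 CPM in METTL3-KO samples, and the groups overlapped, with a log2 fold change of -0.03 (adjusted p = 0.862, SE 0.0973). NFKBIB, which encodes IkB-beta, a slower-acting inhibitor of the same dimers, was at 48.6, 49.0 and 37.6 CPM in WT and 71.0, 67.6 and 81.9 CPM in METTL3-KO samples. It rose 1.63-fold (log2 fold change 0.70, SE 0.110, adjusted p = 0.000596). NFKBIE, which encodes IkB-epsilon, fell instead, from 12.1, 11.3 and 11.3 CPM to 7.13, 6.78 and 8.25 CPM, a log2 fold change of -0.65 (adjusted p = 0.000970, SE 0.110).

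The nuclear members of this family on the list, which bind the factors on DNA and act as cofactors, were both higher. NFKBID, a nuclear relative outside the member list, was lower, as given further on. BCL3, a partner of p50 and p52 homodimers, was at 22.6, 23.4 and 20.9 CPM in WT and 39.1, 40.6 and 48.1 CPM in METTL3-KO samples. This was a 1.91-fold rise (log2 fold change 0.93, SE 0.0969, adjusted p = 3.46e-05). NFKBIZ, which encodes IkB-zeta, a cofactor for secondary response genes such as LCN2, was at 71.2, 80.0 and 94.1 CPM in WT and 119, 117 and 105 CPM in METTL3-KO samples. It rose 1.39-fold, or 0.47 in log2 (adjusted p = 0.00426, SE 0.101), and the lowest knockout sample lay above the highest WT sample.

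Of the kinases, IKBKE rose and IKBKB did not pass. IKBKE encodes IKK-epsilon, a kinase of the interferon and NF-kB responses, and was at 13.3, 12.4 and 12.7 CPM in WT and 17.1, 17.01 and 18.3 CPM in METTL3-KO samples (log2 fold change 0.45, SE 0.0894, adjusted p = 0.00286). IKBKB encodes IKK-beta, the main IkB kinase. It was at 22.4, 22.5 and 21.5 CPM in WT and 19.2, 19.0 and 18.1 CPM in METTL3-KO samples, without overlap, and its log2 fold change of -0.24 (SE 0.0818) missed the threshold at an adjusted p of 0.0521. Without WT replicate 3 it passed (-0.25, adjusted p = 0.0260).

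The largest differences among the adaptors and ubiquitin regulators were of opposite sign. BIRC3 encodes cIAP2, a ubiquitin ligase of the TNF receptor complex and an NF-kB target, and was at 5.21, 6.59 and 8.39 CPM in WT and 19.3, 19.2 and 20.2 CPM in METTL3-KO samples. It rose 2.93-fold (log2 fold change 1.55, SE 0.143, adjusted p = 1.49e-05). TNFAIP3 encodes A20, the ubiquitin-editing enzyme that shuts the pathway off and another NF-kB target, and was at 4.81, 4.69 and 4.97 CPM in WT and 1.76, 1.82 and 1.32 CPM in METTL3-KO samples. That was 0.340 of the WT level (log2 fold change -1.56, SE 0.164, adjusted p = 3.86e-05), from 106 to 132 counts per WT sample and 31 to 53 counts per knockout sample. Both promoters carry a pair of kappa-B words, printed above, so the letters at the start did not separate the gene that rose from the gene that fell.

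CYLD, a deubiquitinase that restrains the pathway like A20, also fell. Its levels were 16.9, 14.7 and 20.9 CPM in WT and 12.1, 10.7 and 9.61 CPM in METTL3-KO samples (log2 fold change -0.69, SE 0.135, adjusted p = 0.00267). TNIP1, the binding partner of A20, was at 183, 176 and 161 CPM in WT and 192, 203 and 208 CPM in METTL3-KO samples. Although its groups did not overlap, its log2 fold change of 0.21 (SE 0.0739) had an adjusted p of 0.0514 and passed only in some alternatives, among them the fit without WT replicate 3 (0.17, adjusted p = 0.0443).

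TRAF3, an adaptor that holds the alternative pathway in check, was higher in METTL3-KO cells, at 29.9, 29.7 and 27.8 CPM against 19.8, 22.5 and 24.0 CPM (log2 fold change 0.40, SE 0.0917, adjusted p = 0.00681). BIRC2, which encodes cIAP1, the neighbour and close relative of cIAP2, was at 67.6, 73.2 and 69.5 CPM in WT and 82.0, 80.7 and 81.8 CPM in METTL3-KO samples. Its log2 fold change of 0.22 (adjusted p = 0.0374, SE 0.0699) did not pass without WT replicate 1 (0.19, adjusted p = 0.137), METTL3-KO replicate 1 (0.22, adjusted p = 0.115), replicate 2 (0.23, adjusted p = 0.0956) or replicate 3 (0.22, adjusted p = 0.0821). BIRC3 and BIRC2 lie side by side on chromosome 11 (102188215 to 102210134 and 102217942 to 102249401, both on the plus strand), and the 2 genes differed widely in the size of their change.

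TRAF2, the adaptor that carries cIAP1 and cIAP2 to TNF receptors, was at 48.0, 46.2 and 43.5 CPM in WT and 40.6, 39.4 and 42.3 CPM in METTL3-KO samples (log2 fold change -0.17, SE 0.0763, adjusted p = 0.122). It passed without WT replicate 3 (-0.21, adjusted p = 0.0309). TRAF1, an adaptor induced by NF-kB in immune cells, was between 5.44 and 7.83 CPM in all samples, with overlapping groups (log2 fold change -0.21, SE 0.129, adjusted p = 0.269).

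Among the other induced genes, ICAM1 fell and LCN2 rose. ICAM1, the adhesion molecule that leukocytes grip, was at 7.83, 6.46 and 6.85 CPM in WT and 3.42, 3.87 and 3.06 CPM in METTL3-KO samples, 0.488 of the WT level (log2 fold change -1.04, SE 0.140, adjusted p = 0.000216). In the annotation used here 25.4% of its exonic bases are shared with other genes. LCN2 was at 194, 232 and 169 CPM in WT and 264, 286 and 323 CPM in METTL3-KO samples (log2 fold change 0.55, SE 0.111, adjusted p = 0.00299). The spread of LCN2 was wide in both groups, at 198 ± 31.3 and 291 ± 29.9 CPM (mean ± SD, n = 3 each), yet they did not overlap.

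TNFAIP2 and IER3, both classical TNF-induced genes and both abundant, did not pass. TNFAIP2 was between 207 and 220 CPM in WT and between 221 and 228 CPM in METTL3-KO samples (log2 fold change 0.06, SE 0.0658, adjusted p = 0.5503). IER3, a regulator of cell survival, was between 48.6 and 56.4 CPM in WT and between 49.0 and 54.5 CPM in METTL3-KO samples (log2 fold change -0.05, SE 0.0828, adjusted p = 0.699). In the annotation used here 38.9% of the exonic bases of IER3 are shared with other genes, and reads ambiguous between genes were left out of the counts.

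IL8, the neutrophil chemoattractant also named CXCL8, had a rise of about the size of that of BIRC3, the other member that rose most. WT samples had 60, 77 and 54 counts and METTL3-KO samples 221, 174 and 205 counts, or 2.19, 3.41 and 2.53 CPM against 7.33, 7.92 and 8.72 CPM. The highest WT sample lay well below the lowest knockout sample. The rise was 2.96-fold (log2 fold change 1.57, SE 0.165, adjusted p = 3.83e-05), and it passed in all 6 fits that left out 1 sample (log2 fold change from 1.42 to 1.77). Without replicate 3 of both groups it was 1.46, where BIRC3 was at 1.71.

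The CXCL genes of the same cluster on chromosome 4, which encode ligands of the same neutrophil receptor, did not pass with all samples. CXCL1 came closest, with 34, 33 and 20 counts in WT and 72, 44 and 35 counts in METTL3-KO samples (log2 fold change 0.70, SE 0.245, adjusted p = 0.0553), and it passed without METTL3-KO replicate 3 (0.86, adjusted p = 0.0265). CXCL2 had 16, 13 and 19 counts in WT and 30, 20 and 19 in METTL3-KO samples (log2 fold change 0.42, SE 0.290, adjusted p = 0.320). CXCL3 had 29, 26 and 27 counts in WT and 35, 25 and 33 in METTL3-KO samples (log2 fold change 0.10, SE 0.228, adjusted p = 0.796). CXCL5 had no count in any sample.

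None of these CXCL genes was above 2.39 CPM in any sample, so that small differences were not detectable at this depth. CXCL1, CXCL2 and CXCL3 are close sequence relatives, and reads that aligned to more than 1 place had been left out of the counts, so their values are uncertain. The 5 promoters printed above all hold GGAANTTCC, and the levels behind them ranged from 0 counts for CXCL5 to at least 174 counts per knockout sample for IL8.

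CXCL16, a transmembrane chemokine for T cells, went the other way. It was at 17.2, 18.7 and 17.3 CPM in WT and 10.1, 9.05 and 10.5 CPM in METTL3-KO samples, a fall to 0.559 of the WT level (log2 fold change -0.84, SE 0.0977, adjusted p = 7.87e-05). CCL20, which attracts lymphocytes to the mucosa, had only 4 to 8 counts per WT sample and 6 to 12 counts per knockout sample (log2 fold change 0.51, SE 0.472, adjusted p = 0.471).

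In the interleukin-1 family the antagonist was the abundant member. IL1RN, which encodes the IL-1 receptor antagonist, was at 21.2, 25.2 and 18.9 CPM in WT and 38.6, 35.5 and 41.5 CPM in METTL3-KO samples. It rose 1.77-fold (log2 fold change 0.82, SE 0.109, adjusted p = 0.000184). The agonists it opposes were barely detected: IL1A had 2 to 7 counts per WT sample and 3 to 8 per knockout sample (log2 fold change 0.27, SE 0.621, adjusted p = 0.788), and IL1B had 6 to 12 and 11 to 15 counts (log2 fold change 0.48, SE 0.367, adjusted p = 0.371). IL18, a cytokine of the same family that epithelial cells store as a precursor, was between 5.96 and 8.63 CPM with overlapping groups (log2 fold change 0.18, SE 0.137, adjusted p = 0.361).

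TNFSF10 encodes TRAIL, the death ligand of the TNF family. It was at 12.0, 11.5 and 8.02 CPM in WT and 16.9, 19.2 and 21.2 CPM in METTL3-KO samples, a 1.81-fold rise (log2 fold change 0.85, SE 0.144, adjusted p = 0.000947). TNF itself had 2 counts in all WT samples together and 2 in all METTL3-KO samples together, and IL6 had none in either group. A count of 0 allows up to 3 counts, which is 0.042 CPM over the WT samples and 0.0396 CPM over the METTL3-KO samples, in counting error only.

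LIF, a cytokine that signals through gp130, was at 33.5, 35.2 and 37.1 CPM in WT and 35.1, 34.0 and 35.7 CPM in METTL3-KO samples. These ranges overlapped almost wholly (log2 fold change -0.01, SE 0.0774, adjusted p = 0.930). IL32, a cytokine first found in lymphocytes, had 52, 54 and 25 counts in WT and 29, 20 and 31 counts in METTL3-KO samples (log2 fold change -0.78, SE 0.281, adjusted p = 0.0599). Its low WT sample was replicate 3, without which it passed (-0.9996, adjusted p = 0.00337).

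IL6ST encodes gp130, the signalling receptor shared by IL-6, LIF and their relatives, and fell the most among the receptors. It was at 46.9, 46.1 and 64.6 CPM in WT and 25.2, 26.8 and 22.0 CPM in METTL3-KO samples, 0.469 of the WT level (log2 fold change -1.09, SE 0.130, adjusted p = 9.11e-05). TNFRSF1A, the main receptor of TNF, was at 96.7, 95.2 and 84.9 CPM in WT and 72.4, 71.4 and 81.9 CPM in METTL3-KO samples (log2 fold change -0.29, SE 0.0835, adjusted p = 0.0209). The knockout samples of TNFRSF1A lay below the WT samples by a narrow margin, and it did not pass without WT replicate 1 (-0.26, adjusted p = 0.0822), WT replicate 2 (-0.26, adjusted p = 0.0800), METTL3-KO replicate 1 (-0.26, adjusted p = 0.0992) or METTL3-KO replicate 2 (-0.26, adjusted p = 0.110). The feedback inhibitors SOCS2 and SOCS3 had at most 18 counts in any sample, with log2 fold changes of -0.38 (adjusted p = 0.692, SE 0.622) and 0.10 (adjusted p = 0.862, SE 0.363).

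**Figure D3:**
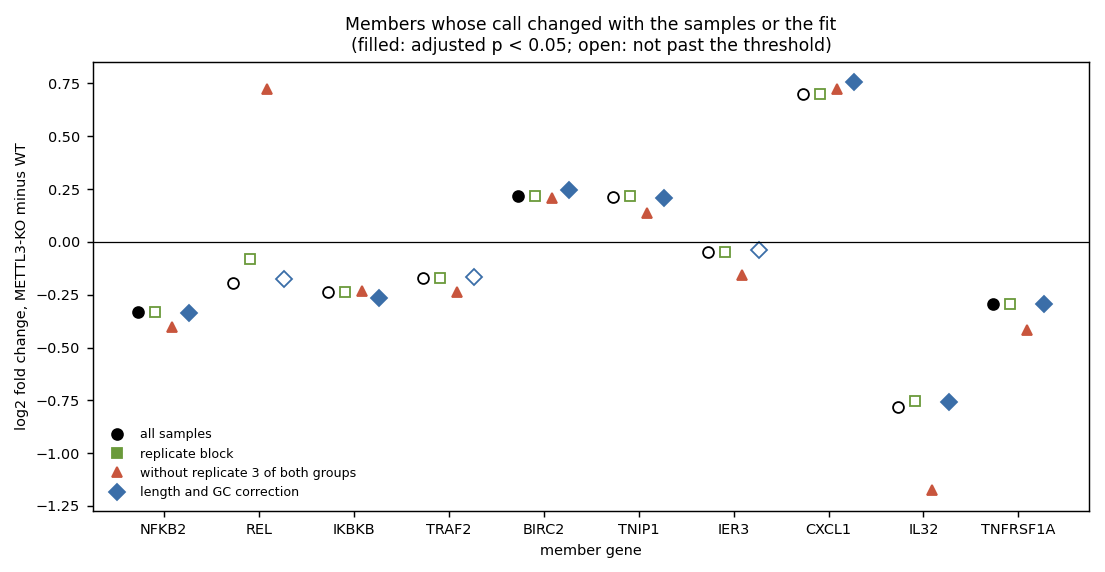
Log2 fold change of the 10 members whose call differed between all samples (black), the fit with the replicate number as a block (green), the fit without replicate 3 of both groups (red) and the correction for length and GC content of transcripts (blue). Filled symbols have an adjusted p under 0.05, and REL moves from -0.19 to 0.73 when replicate 3 is left out while no other member shown changes sign.

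Of the 21 members that passed, 18 also passed in all 6 fits that left out 1 sample and in every other alternative. The other 3 were NFKB2, BIRC2 and TNFRSF1A, as given above. Without replicate 3 of both groups all 21 passed in the same direction, and REL, IKBKB, TRAF2, TNIP1, IER3, CXCL1 and IL32 passed besides. More of all tested genes passed in that fit too, as given in the closing section. The added calls are therefore not read as particular to the members.

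The kappa-B words of the promoters were spread over all outcomes. Among members that rose, 7 of the 11 with a promoter entry held a word, and these were NFKBIB, NFKBIZ, BCL3, TRAF3, BIRC3, LCN2 and IL8. Among members that fell it was 5 of 8, namely NFKB1, NFKB2, TNFAIP3, CYLD and ICAM1. Among those that did not pass it was 8 of 14, and of the 3 untested members CXCL5 and IL6 held one.

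Short words in the transcripts were counted as well. GGACT, one of the words that the METTL3 complex methylates, occurred at a median of 0.765 per kb of the longest transcript in the members that rose, 1.34 in those that fell and 1.31 in those that did not pass, against 0.908 over the 17286 tested genes with a known transcript. Over all tested genes those that were higher and those that were lower had the same median, 0.929 per kb. Both groups of members spread widely, from 0 in IL8 to 2.34 in IL1RN among those that rose and from 0.332 in IL6ST to 2.35 in NFKB2 among those that fell, so that no contrast between them is read from the medians. ATTTA, the core of the AU-rich elements that shorten the life of cytokine mRNAs, was frequent in IL8, with 14 in 2018 bases or 6.94 per kb. It was frequent as well in BIRC3 (3.49 per kb), which rose, and in NFKB1 (4.69), IL6ST (3.10) and CYLD (3.04), which fell. CXCL2, which did not pass, held more per kb than IL8 (8.97). Among the members that passed ATTTA was absent from RELA, NFKBIB, NFKBIE, BCL3 and LCN2. Its medians were 0.765 per kb in members that rose, 0.767 in those that fell and 1.54 in those that did not pass. Over the tested genes with a known transcript the median was 0.948. These densities describe the annotated sequences and were not tested against the changes.

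Beyond the members, 99 further genes of the pathway were looked up by list, and 86 could be tested. In METTL3-KO cells 14 of these were higher and 15 lower, 33.7% in all against 26.5% of all tested genes, and the median log2 fold change was -0.03.

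**Figure D4:**
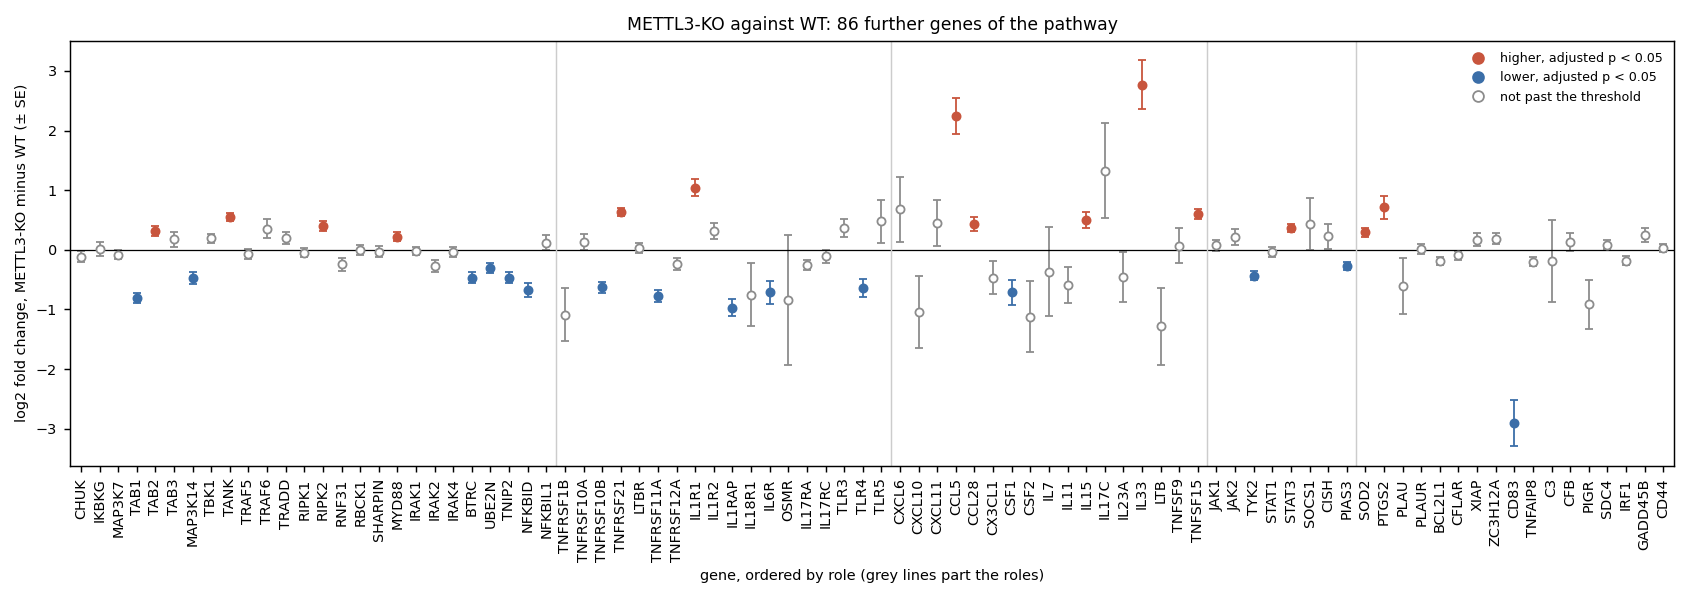
Log2 fold change of METTL3-KO minus WT with its standard error for 86 further pathway genes, in the order upstream adaptors, receptors, cytokines, the JAK-STAT3 branch and other target genes. Most points lie within 1 of 0, and CCL5 and IL33 at the top and CD83 at the bottom are the genes that passed farthest from it.

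Upstream of the factors, 4 of 26 kinase and adaptor genes were higher and 6 lower (38.5%, against 26.5% of all tested genes). Every gene of this list had a mean log2 CPM of at least 1, where 39.5% of all tested genes passed. TAB1, which activates the kinase TAK1, fell from 31.4 ± 1.86 to 17.9 ± 1.25 CPM (mean ± SD, n = 3 each), a log2 fold change of -0.81 (adjusted p = 5.25e-05, SE 0.0890). TANK, a scaffold that binds TRAF proteins and IKK-epsilon, rose by 0.56 on the log2 scale (adjusted p = 9.52e-05, SE 0.0667). NFKBID, another nuclear relative of IkB, fell (log2 fold change -0.67, SE 0.117, adjusted p = 0.00116), unlike BCL3 and NFKBIZ, and so did TNIP2, a relative of TNIP1 (-0.47, SE 0.0910, adjusted p = 0.00242).

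The receptor list had 2 genes higher and 5 lower of 18 tested (38.9%, against 26.5% of all tested genes). TNFRSF21, a death receptor, rose by 0.63 on the log2 scale (adjusted p = 4.32e-05, SE 0.0674), and IL1R1, the signalling receptor for IL-1, by 1.04 (adjusted p = 0.000221, SE 0.142). IL1RAP, of the same receptor family as IL1R1, fell (log2 fold change -0.97, SE 0.149, adjusted p = 0.000529). TNFRSF11A, the receptor named RANK, fell (log2 fold change -0.78, SE 0.0947, adjusted p = 0.000108), as did TNFRSF10B, a receptor for TRAIL (-0.63, SE 0.0853, adjusted p = 0.000217).

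Of the 17 further cytokines and chemokines tested, 5 were higher and 1 lower (35.3%, against 26.5% of all tested genes, of which 13.3% were higher). CCL5, a chemokine for T cells, had 7, 13 and 9 counts in WT and 62, 49 and 37 counts in METTL3-KO samples (log2 fold change 2.24, SE 0.306, adjusted p = 0.000229). IL33, an epithelial alarmin, had 4, 2 and 9 counts in WT and 37, 37 and 36 in METTL3-KO samples (log2 fold change 2.77, SE 0.414, adjusted p = 0.000435). TNFSF15 rose by 0.60 on the log2 scale (adjusted p = 0.000478, SE 0.0912) and IL15 by 0.50 (adjusted p = 0.0142, SE 0.130). IL15 did not pass without WT replicate 2 (0.46, adjusted p = 0.0572), METTL3-KO replicate 1 (0.46, adjusted p = 0.0644) or METTL3-KO replicate 2 (0.42, adjusted p = 0.0739).

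Downstream of gp130, the JAK-STAT3 branch had 1 gene higher and 2 lower of 8 tested (37.5%, against 26.5% of all tested genes). STAT3, the main transcription factor of this receptor, rose by 0.37 on the log2 scale (adjusted p = 0.00163, SE 0.0679) while IL6ST itself fell. TYK2, one of its kinases, fell (log2 fold change -0.43, SE 0.0748, adjusted p = 0.00114), and so did PIAS3, an inhibitor of STAT3 (-0.28, SE 0.0675, adjusted p = 0.00984). PIAS3 did not pass without METTL3-KO replicate 2 (-0.27, adjusted p = 0.0552).

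Of 17 other NF-kB target genes tested, 2 were higher and 1 was lower, or 17.6%, below the 26.5% of all tested genes. PTGS2, the inducible cyclooxygenase, was higher (log2 fold change 0.71, SE 0.190, adjusted p = 0.0157), and so was SOD2, the mitochondrial superoxide dismutase (0.29, SE 0.0815, adjusted p = 0.0194). PTGS2 did not pass without WT replicate 1 (0.65, adjusted p = 0.0671), METTL3-KO replicate 1 (0.57, adjusted p = 0.0874) or METTL3-KO replicate 2 (0.63, adjusted p = 0.0739). SOD2 did not pass without WT replicate 1 (0.27, adjusted p = 0.0711), WT replicate 2 (0.28, adjusted p = 0.0560), METTL3-KO replicate 1 (0.26, adjusted p = 0.0922) or METTL3-KO replicate 3 (0.28, adjusted p = 0.0552). CD83, a surface protein of activated immune cells, had 52, 26 and 38 counts in WT and 8, 6 and 2 counts in METTL3-KO samples, which gives a log2 fold change of -2.91 (adjusted p = 0.000185, SE 0.384).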

How the data were processed

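Total RNA of 3 WT and 3 METTL3-KO samples of HCT116 cells was made into libraries with the Illumina TruSeq RNA kit and sequenced as paired ends. The authors mapped the reads to hg19 with TopHat2 (version 2.0.11) and an Ensembl GRCh37 transcript index, and used htseq-count (union mode) to count them. What was deposited is 1 raw count for every gene symbol and sample, neither normalized nor pooled, with 20936091 to 30142144 counts on genes per sample. Ambiguous reads, reads with several alignments and reads on no gene were held in separate counters (7.95% to 8.77%, 13.4% to 14.7% and 6.03% to 9.08% of each file) and stayed out of library sizes. The deposited tables carry the group tags NC and SiM3 and number the WT samples differently; groups and numbers were taken from the labels.

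Genes had to reach 5 total counts in at least 1 condition. Those that did were tested with edgeR's quasi-likelihood test (edgeR 4.0.16, R 4.3.3, TMM, two-sided) with Benjamini-Hochberg adjustment over all 22452 genes. The SE is the size of the log2 fold change divided by the square root of F. Alternatives were DESeq2 (1.42.0), RLE normalization, other filters, a replicate block and leaving out samples. A correction for transcript length and GC content (5-df splines over genes above a log2 CPM of 3) was chosen with the data in view. Procedures were tested on simulated data that held group differences only. These data had no shift of replicate 3 along transcript length, so they do not show how the procedures behave under it. The members and lists were chosen with earlier results of these data known. All members are named, with METTL3 and, from each further list, up to 4 genes with the smallest adjusted p under 0.05. IL1RAP is named besides, next to IL1R1. Positions, lengths and overlaps came from GENCODE on GRCh37, in which 35740 of 56638 symbols were found, older symbols included through RefSeq synonyms. Promoters came from RefSeq (GRCh38.p14), and the printed windows were placed in GRCh37 by exact match.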

Additional observations from a re-analysis of the deposited data

How the results depend on the processing

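Direction and call of the members rested little on the choice of tool. With DESeq2, RLE normalization and the filter of edgeR's filterByExpr all 21 members passed again, and with no filter beyond 1 count 20 did. Neither the labels nor the methods say whether the replicate numbers pair the samples. The deviations of same-numbered samples from their group means correlated at -0.586, -0.390 and -0.784 across genes. Across the groups no sample correlated best with its own number. These deviations followed transcript length and were set largely by replicate 3, so they cannot show whether the samples were paired. With the replicate number as a block, 18 of the 21 passed (BIRC2, NFKB2 and TNFRSF1A did not). Over all 22452 tested genes 1810 were higher and 1719 lower in that fit, and 8 of the 86 further pathway genes were higher. Of the further genes named, PTGS2, SOD2, IL15 and PIAS3 did not pass with the block (adjusted p = 0.0533, 0.0914, 0.0634 and 0.0888), and SOD2 did not with block and length correction together (adjusted p = 0.132). Without replicate 3 of both groups, 4555 genes were higher and 4823 lower of 21242 tested, against 2986 and 2959 of 22452 with all samples. The calls over all genes thus changed with the fit, and the counts of further pathway genes are not read as particular to them. Without replicate 3 of both groups, 27 further pathway genes were lower, and the median of the members was 0.010. In that fit the sign turned for REL (0.73), RELB (-0.036), LIF (0.010) and SOCS3 (-0.12), of which REL alone passed. With 1 sample left out, the members' median ran from 0.029 to 0.123 and the number of further pathway genes that were higher from 9 to 20. The sign turned in some of these fits for NFKBIA (-0.092 to 0.044), IL1A (-0.16 to 0.87), REL (-0.45 to 0.49), LIF (-0.047 to 0.029), SOCS2 (-0.87 to 0.020), SOCS3 (-0.087 to 0.30) and CXCL3 (-0.00011 to 0.16), none of which passed in any of them. The cause was not tested. The length and GC correction, for which all 41 tested members had a length, called all 21 members again and CXCL1, IKBKB, IL32 and TNIP1 besides, or all but IL32 together with the block. It was not used for counts over all genes, of which 17286 of 22452 had a length. Low counts, at most 72 in any sample, limit CXCL1, CXCL2, CXCL3, CCL20, IL1A, IL1B, IL32, SOCS2 and SOCS3.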
